A study of Rattus norvegicus with 4 samples.

Results

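Cyp51, Dhcr7 and Acat2 are the genes of cholesterol synthesis that were followed here in the liver of rats given α-naphthylisothiocyanate (ANIT), a toxicant that injures bile duct cells and impairs bile flow. They were taken by symbol: every feature of the array whose annotation held exactly 1 of these 3 symbols. That gave 7 of 1936 features, and 3 of 958 named genes. Cyp51 had 4 features, numbered 194, 419, 1389 and 1471, Dhcr7 had 2, numbered 921 and 1751, and Acat2 had 1, numbered 681.

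The ANIT group was male Sprague-Dawley rats killed 24 h after an intraperitoneal injection of 75 mg/kg ANIT, given as a 7.5 mg/ml solution in olive oil. Control rats of the same strain and sex received an equal volume of olive oil. Before the experiment the rats had free access to chow, and no source used here gives their age. RNA from 3 livers was combined per condition, so each condition is 1 RNA pool, the animals' spread is unknown and no p-value for the treatment is possible. The cDNA of both pools was hybridised together on 4 spotted cDNA arrays, the ANIT pool labelled with the dye Cy5 for arrays 1 and 3 and with Cy3 for arrays 2 and 4. Each array gave 1 log ratio per feature, read here as log2 of the ANIT pool over the olive oil pool. That direction is likely and not stated: it rests on the order of the channels in the labels, and the opposite direction would turn every sign below. Errors are SDs over the 4 arrays, which are technical repeats. In bulk liver RNA, fewer cells of a type and less RNA per cell cannot be told apart, and a ratio carries no level, so the tissue could not be checked against levels of its markers.

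Cholesterol is built from acetyl-CoA through mevalonate and squalene to lanosterol, which further enzymes trim and reduce to cholesterol. In the liver it feeds membranes, lipoproteins and bile acids, and when sterols run low the membrane-bound transcription factor SREBP, encoded by Srebf2, is cut free and turns on nearly the whole pathway. Acat2 is the cytosolic thiolase that joins acetyl-CoA units at the start. Cyp51 is the cytochrome P450 that removes a methyl group from lanosterol, and Dhcr7 is the reductase that makes cholesterol from dehydrocholesterol at the end.

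The name Acat2 has been used for 2 enzymes, the thiolase and an enzyme of cholesterol esterification. The Acat2 feature on the array carries gene ID 308100, which RefSeq lists as Acat2 with the older name Acat3. The enzyme that esterifies cholesterol in hepatocytes and intestine is listed apart, as Soat2 (gene ID 266770, older name Acat-2). No feature carried the gene ID of Soat2, of Soat1 or of Lcat, the plasma enzyme that esterifies cholesterol on lipoproteins. All 3 genes are therefore described as synthesis genes, and esterification was not analysed here.

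The 250 bases before the start of each gene are given because the pathway is known for shared control at its promoters, while the ratios of Cyp51 and Dhcr7 stood on opposite sides of 0. They are from RefSeq, build GRCr8, plus strand: Cyp51 at chr4:30991443-30991692, Dhcr7 at chr1:208444184-208444433 and Acat2 at chr1:50100590-50100839. Capitals mark the GC box GGGCGG on either strand and, in Cyp51, the core of a cAMP response element, TGACGT.
Cyp51: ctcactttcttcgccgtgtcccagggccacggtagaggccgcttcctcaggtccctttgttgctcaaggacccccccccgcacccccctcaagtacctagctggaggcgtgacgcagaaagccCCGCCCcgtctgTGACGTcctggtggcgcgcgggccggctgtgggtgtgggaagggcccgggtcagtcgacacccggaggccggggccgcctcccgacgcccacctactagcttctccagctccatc
Dhcr7: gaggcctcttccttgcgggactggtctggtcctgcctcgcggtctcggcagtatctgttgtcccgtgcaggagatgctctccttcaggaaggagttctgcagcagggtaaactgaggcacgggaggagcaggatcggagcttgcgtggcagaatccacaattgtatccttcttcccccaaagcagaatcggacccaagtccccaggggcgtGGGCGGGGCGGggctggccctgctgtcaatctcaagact
Acat2: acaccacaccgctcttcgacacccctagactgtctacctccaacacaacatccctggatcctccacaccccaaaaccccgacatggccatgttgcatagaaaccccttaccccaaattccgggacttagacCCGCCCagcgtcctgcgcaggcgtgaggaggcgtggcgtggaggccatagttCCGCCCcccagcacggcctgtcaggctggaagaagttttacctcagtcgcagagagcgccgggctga

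A GC box was found in all 3 windows, at position 124 of the Cyp51 window, at 212 and 217 of the Dhcr7 window, where the matches share a base, and at 132 and 184 of the Acat2 window (counted from 1 at the 5′ end). Of 33469 RefSeq rat windows of the same length, 30.5% held one. TGACGT lay at position 136 of the Cyp51 window and in neither other, and 6.95% of all windows held it on either strand. Also searched on both strands was CCAAT, held by 34.0% of all windows and by none of these 3. The windows were rich in G and C, with 69.2% in Cyp51, 60.8% in Dhcr7 and 60.8% in Acat2, against a median of 51.2% over all windows. Binding sites of SREBP were not searched for. These matches describe the letters only, and whether they bear on the ratios was not tested.

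Cyp51 had a small positive log2 ratio on every feature and every array. Feature 194 stood at 0.47, 0.31, 0.39 and 0.43 on arrays 1 to 4, a mean of 0.40 ± 0.07. Feature 419 stood at 0.49, 0.38, 0.52 and 0.23 on arrays 1 to 4, with a mean of 0.41 ± 0.13. These values lay above 0 whichever dye the ANIT pool carried. On the same arrays in the same order feature 1389 stood at 0.45, 0.22, 0.38 and 0.28, with a mean of 0.33 ± 0.10. Feature 1471 stood at 0.33, 0.31, 0.29 and 0.36, with a mean of 0.33 ± 0.03. Averaged over its features, Cyp51 had a log2 ratio of 0.37 ± 0.06, or 1.29 times as much in the ANIT pool as in the olive oil pool (77.6% of it if the ratios run the other way). RefSeq also lists a Cyp51 pseudogene, Cyp51a1-ps1, on chromosome 6, and whether it shares signal with these spots was not tested.

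Dhcr7 had a negative log2 ratio on every array. Feature 921 stood at -0.67, -0.64, -0.54 and -0.55 on arrays 1 to 4, a mean of -0.60 ± 0.07. Feature 1751 stood at -0.48, -0.71, -0.53 and -0.56, a mean of -0.57 ± 0.10. The ranges of these features overlap, and neither crossed 0. The gene mean was -0.59 ± 0.06, which puts the ANIT pool at 66.6% of the olive oil pool, or at 150.1% if the ratios run the other way.

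Acat2 values split by dye orientation. Its feature stood at -1.29 and -1.34 on arrays 1 and 3, where ANIT was in Cy5, and at 0.58 and 0.73 on arrays 2 and 4, where ANIT was in Cy3. Its mean of -0.33 ± 1.14 therefore averages values on opposite sides of 0, and the repeat arrays within an orientation differed by only 0.05 and 0.14. No direction for Acat2 can be read from these arrays.

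**Figure D1:**
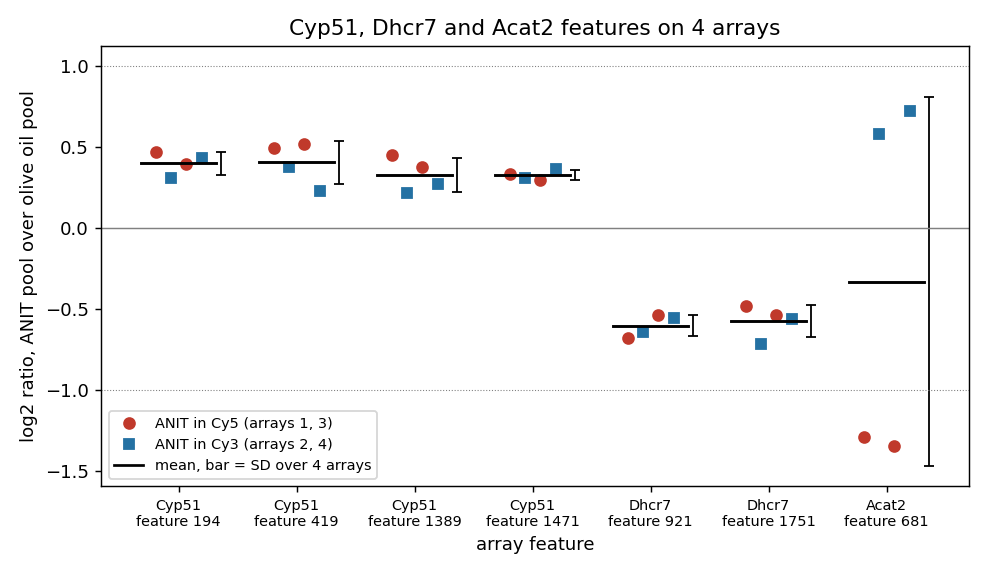
Log2 ratio of the ANIT pool over the olive oil pool for each of the 7 features (x axis) on each of the 4 arrays. Circles are arrays with ANIT in Cy5, squares arrays with ANIT in Cy3, black lines the means, bars the SD over 4 arrays, and dotted lines the 2-fold limits. The Cyp51 points all lie above 0 and the Dhcr7 points all below, while the Acat2 points split by dye.

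None of the 7 features passed the size rule used for a call, a mean of at least 2-fold (1 on the log2 scale) with the same sign on all 4 arrays. Over all features 0.775% were called higher and 3.05% lower by that rule, 15 and 59 features, or 22 and 48 with each array centred on its median. The shares over all features include unnamed features, and 18 positions without a symbol recur every 121 features, 16 times in all. At 3 of these positions (48 features) means ran from 0.42 to 0.60, above 0 on all arrays. These 48 are short of the 2-fold rule and enter the share by sign given below. Those with a mean of at least 1.5-fold also enter the share higher by that limit. Over the 1432 features with 1 symbol, 0.628% were called higher and 3.63% lower. With the limit at 1.5-fold, Dhcr7 feature 921 passed, 1.52-fold lower in the ANIT pool, and Dhcr7 feature 1751 stood just outside at 1.49-fold, in a table where 6.92% of features were lower and 2.48% higher by that limit. By sign alone, all 4 Cyp51 features were above 0 on all 4 arrays, as were 11.9% of all features and 10.8% of those with 1 symbol. Both Dhcr7 features were below 0 on all 4, as were 17.6% of all features and 20.5% of those with 1 symbol. Among features with 1 symbol, 79 had a larger mean than Cyp51 feature 194, and 125 had a smaller mean than Dhcr7 feature 921.

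Cyp51 stood above Dhcr7 by a similar amount on all 4 arrays. Taken within each array, the Cyp51 gene mean minus the Dhcr7 gene mean was 1.01, 0.98, 0.93 and 0.88 on arrays 1 to 4. The mean was 0.95 ± 0.06 on the log2 scale, or 1.93-fold. An offset shared by all features of an array cancels in this difference. It compares these RNA pools and not the conditions, since each condition is 1 pool. Acat2 gave no such gap, with Cyp51 minus Acat2 at 1.73, -0.28, 1.74 and -0.40.

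The dye contrast puts a number on this, as the mean of arrays 1 and 3 minus that of arrays 2 and 4, divided by 2. It lay between -0.01 and 0.10 for the Cyp51 features and was -0.01 and 0.06 for the Dhcr7 features, against a median of -0.34 over features with 1 symbol. The 586 features with 1 symbol and a contrast within 0.25 of 0 had a median log2 ratio of -0.09 and an interquartile range from -0.33 to 0.18. Within this set 16.7% of features had a mean at or above the lowest Cyp51 feature, and 13.1% at or below the higher Dhcr7 feature. The Acat2 contrast was -0.98, and 7.82% of features with 1 symbol had one as low or lower.

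The Acat2 mean was also close to that of features with the same dye behaviour. The 161 other features with 1 symbol and a dye contrast within 0.1 of that of Acat2 had a median log2 ratio of -0.38, with an interquartile range from -0.42 to -0.33. Acat2, at -0.33, lay near its upper end. All 161 had orientation means below 0 for ANIT in Cy5 but above 0 for ANIT in Cy3, a pattern that 56.5% of features with 1 symbol showed. No spot intensities were at hand, and the part of signal strength in this pattern was not tested.

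**Figure D2:**
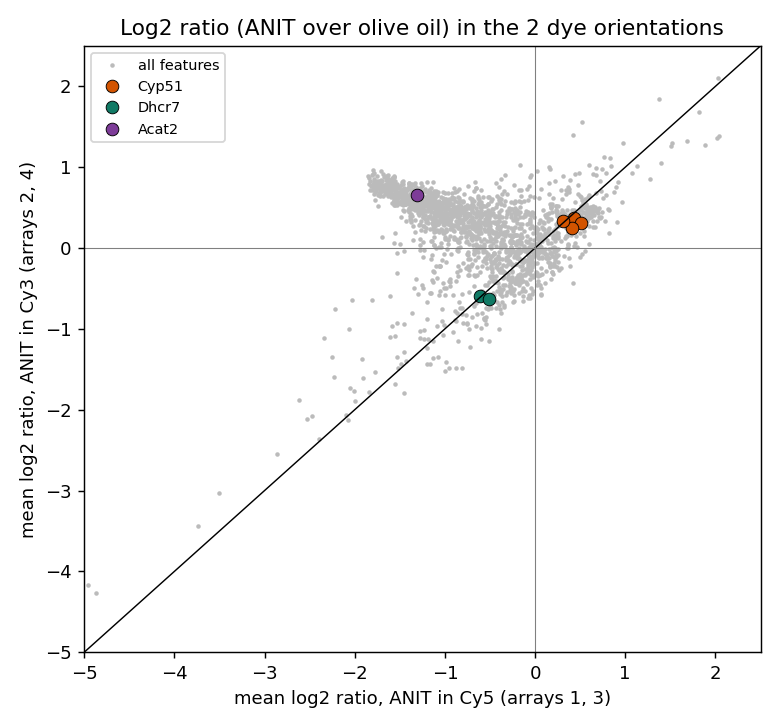
Mean log2 ratio of each of the 1936 features with ANIT in Cy5 (x axis, arrays 1 and 3) against the mean with ANIT in Cy3 (y axis, arrays 2 and 4), with the line of equality. The Cyp51 and Dhcr7 points lie close to the line, and the Acat2 point, at -1.31 and 0.65, lies in the cloud far above it.

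The separate features of Cyp51 and of Dhcr7 gave nearly the same ratio. The highest and lowest Cyp51 means differed by 0.08 on the log2 scale. Among the 30 genes with 4 or more features this was the smallest range, with a median of 0.49 and a largest range of 1.27, that of Por. The Dhcr7 means differed by 0.03. Among the 261 genes with 2 features, 29 had a smaller range and 231 a larger one, and the median was 0.17. Acat2 had 1 feature, so no such comparison can be made.

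**Figure D3:**
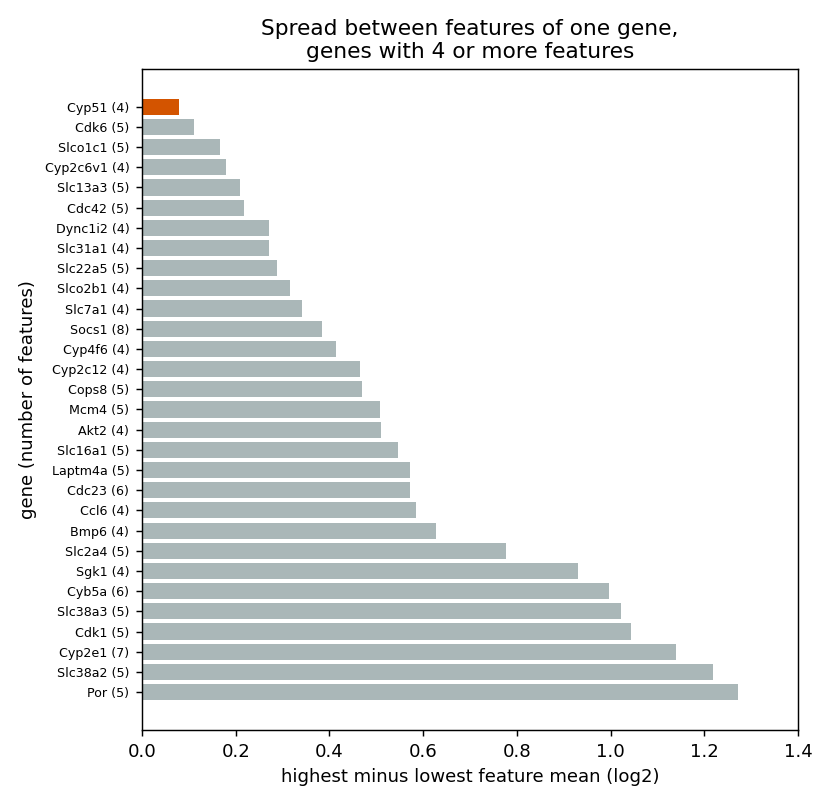
Highest minus lowest feature mean, in log2 units, for each of the 30 genes with 4 or more features (number of features in brackets). Cyp51 has the shortest bar, 0.08, and Por the longest, 1.27.

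The other genes of cholesterol synthesis on the array were few. Of 23 listed genes from the thiolase step to cholesterol, 4 were measured, the 3 above and Mvk, which phosphorylates mevalonate. Of these 4, 0 were called higher and 0 lower. Mvk stood at -0.28, 0.30, -0.26 and 0.19 on arrays 1 to 4, a mean of -0.01 ± 0.30, and changed sign with the dye. The median of the 4 gene means was -0.17, against -0.24 over all 958 genes, of which 6 were called higher and 34 lower. This median of 4 lies between Acat2 and Mvk, the genes that changed sign with the dye. It was -0.41 with ANIT in Cy5 alone and 0.28 with ANIT in Cy3 alone, so it gives no direction for the pathway.

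Genes that govern or supply the pathway were likewise short of the rule. Nr1h2, the liver X receptor beta that senses oxidised sterols, was the only measured one of 10 sterol regulators and stood at 0.66, 0.38, 0.57 and 0.59, a mean of 0.55 ± 0.12. Scarb1, the receptor that takes up cholesterol from high-density lipoprotein, was the only measured one of 6 uptake genes, at -0.15 ± 0.09. None of the 4 efflux genes, the 3 esterification genes and the 10 genes of ester hydrolysis and sterol traffic was analysed here. Of 10 genes of other thiolases and ketogenesis, 2 were measured and 0 called, Hadhb at 0.06 ± 0.49 and Hadha at 0.01 ± 0.29. Both encode subunits of the mitochondrial trifunctional protein. Each gene mean averages unlike features. Hadhb feature 241 stood at 0.38 ± 0.19, above 0 on all arrays, while feature 1049 split by dye, at -0.26 ± 0.80. Hadha feature 1054 stood at 0.01 ± 0.07, while feature 1528 split by dye, at 0.01 ± 0.62.

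Cyp51 needs electrons, which Por, the P450 reductase, delivers. All 4 listed electron donor genes were measured, and by gene mean 0 were called. Por had a gene mean of 0.36 ± 0.15, with the arrays at 0.26, 0.45, 0.21 and 0.52, all above 0 as for Cyp51. Its 5 features did not match one another, as given above for their range. Cyb5r3, the cytochrome b5 reductase, stood at -0.97 ± 0.57, just short of the rule. Without array 4 it stood at -1.02 and was called lower.

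The routes that use cholesterol or share its precursor had genes that stood farther below 0 than Dhcr7. Of 10 listed genes of bile acid synthesis 3 were measured, and all 3 were called lower, with a median of -1.31. Cyp27a1, which starts the alternative route from cholesterol, stood at -1.31 ± 0.18, Cyp7a1, which starts the classic route, at -1.60 ± 0.78, and Cyp8b1, which leads to cholic acid, at -1.19 ± 0.65. The Cyp8b1 call averages unlike features: feature 1391 stood at -1.89 ± 0.19, while feature 422 split by dye like Acat2, at -1.61, 0.58, -1.30 and 0.34 on arrays 1 to 4, a mean of -0.50 short of the rule. With ANIT in Cy3 alone 1 of the 3 was called. Within arrays, Cyp51 minus Cyp27a1 was 1.68 ± 0.12, between 1.52 and 1.82, and Dhcr7 minus Cyp27a1 was 0.72 ± 0.15, between 0.51 and 0.84.

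Fatty acid synthesis draws on the same acetyl-CoA. The list used here has 16 genes and also takes in desaturation and activation of fatty acids. Of these 7 were measured, 4 were called lower and 0 higher, with a median of -1.91 and a highest gene mean of -0.05. Fasn, the fatty acid synthase, stood at -2.08 ± 0.13, the desaturase Scd at -3.26 ± 0.30, the desaturase Fads2 at -1.91 ± 0.42 and the acyl-CoA synthetase Acsl1 at -2.48 ± 0.31. Within arrays, Cyp51 minus Fasn was 2.44 ± 0.14 and Dhcr7 minus Fasn 1.49 ± 0.11, so both sterol genes stood above Fasn on all 4 arrays. Among lipoprotein genes, 5 of 8 were measured and Apoc1 was the 1 called, lower at -1.20 ± 0.35, while 0 were called higher. With ANIT in Cy5 alone Apoc1, at -0.85 and -0.97 on arrays 1 and 3, was not called.

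**Figure D4:**
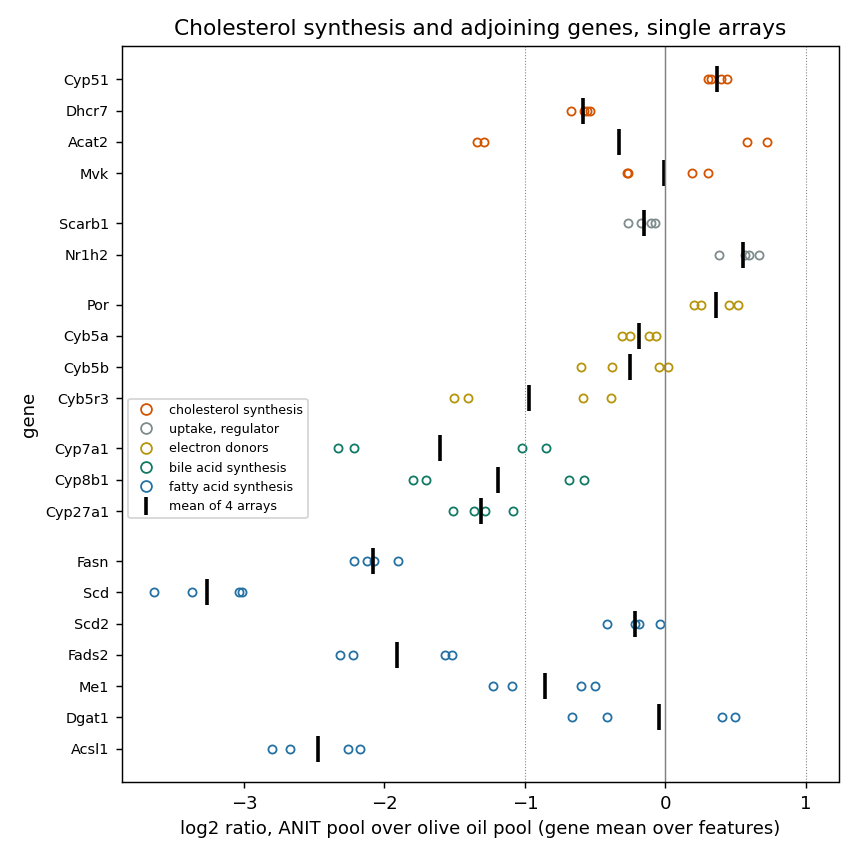
Log2 ratio of the ANIT pool over the olive oil pool (x axis) for named genes (y axis), as gene means over features. Open circles are the 4 arrays, black ticks their mean, dotted lines the 2-fold limits. Cyp51 and Dhcr7 lie inside the limits with narrow spreads, all 3 bile acid genes have means beyond the lower limit, and Fasn, Scd, Fads2 and Acsl1 lie farther out.

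Among features of other genes, those whose 4 array values lay closest to a member were found by the Euclidean distance over the 4 arrays, 5 for each feature. For the Cyp51 features the distances ran from 0.07 to 0.22. Psmd3, a proteasome subunit, and Mapk14, a stress-activated kinase, were each near 2 of the Cyp51 features, as was Fabp3, a fatty acid binding protein. Psmd2, another proteasome subunit, and Arf1, a small GTPase of vesicle traffic, came near through different features of their own. The feature means of Psmd2 differed by 0.02, but those of Arf1 ranged over 0.92 and those of Fabp3 over 0.86. Arf1 feature 940 averaged -0.64 on arrays 1 and 3 and -0.34 on arrays 2 and 4. Fabp3 feature 1176 split by dye, averaging -1.39 on arrays 1 and 3 and 0.53 on arrays 2 and 4. Nearness to Cyp51 thus does not hold for every feature of Arf1 or Fabp3. For Dhcr7 the distances ran from 0.09 to 0.25. Gsto1, a glutathione transferase, and Gchfr, a regulator of GTP cyclohydrolase, were near both features. For Gchfr this was feature 336. Its feature 1330 lay lower, averaging -0.79 on arrays 1 and 3 and -0.93 on arrays 2 and 4. The nearest to Acat2 were Dyrk2, Slc22a6, Parp2, Top2a and a feature of Cyb5r3, at 0.05 to 0.10. These likenesses are over 4 technical repeats of the same pools and say only that the ratios were alike.

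Markers of other liver cells gave no called gene. Of the cholangiocyte markers 2 of 8 were measured, Spp1 at -0.37 ± 1.15 and Ggt1 at -0.31 ± 1.11. Of the neutrophil markers 1 of 6 was measured, S100a9 at -0.13 ± 0.89, of the stellate cell markers 1 of 8, Col1a1 at -0.44 ± 0.72, and of the endothelial markers 2 of 6, Kdr at -0.44 ± 0.48 and Tek at -0.22 ± 1.01. None of the 7 macrophage markers was analysed here. Of 7 hepatocyte markers 3 were measured, Serpina1 at -0.28 ± 0.96, Ttr at -0.13 ± 0.27 and Apoa1 at 0.07 ± 0.20. By gene mean, Spp1, Ggt1, S100a9, Col1a1, Tek and Serpina1 split by dye as Acat2 did. They stood below 0 on arrays 1 and 3 and above 0 on arrays 2 and 4. Col1a1 and S100a9 each average unlike features. Col1a1 feature 1306 stayed below 0, at -0.74, -0.04, -0.74 and -0.23 on arrays 1 to 4. S100a9 feature 920 stood above 0 on array 3, at 0.09. No direction can be read from these gene means, so the lack of a call does not show that these genes were unchanged. The part of cell composition in the Cyp51 and Dhcr7 ratios was not tested. The spotted controls Actb and Hprt1 stood at -0.17 ± 0.21 and -0.15 ± 0.39.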

How the data were processed

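Per the labels' protocols, livers of 3 rats gave 1 mixed RNA per condition, from which poly(A) RNA was taken, and Cy3- and Cy5-labelled cDNA of both pools was hybridised to spotted cDNA arrays. The authors deposited 1 log ratio per feature and array, read here as log2. For the scanner, the background correction, the normalization, the log base and the ratio direction, no source used here gives a statement. The largest ratios kept their sign when the dyes were swapped, which shows that all arrays run the same way, so no sign was turned. Array medians were -0.68, 0.31, -0.64 and 0.35, and values were used as deposited.

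Features were named through the platform annotation, and 1429 of 1432 features with 1 symbol matched a gene ID of the RefSeq table (GRCr8). The mean over the 4 balanced arrays, its SD, the 2-fold rule, gene means and list medians were computed. The number of arrays limits the precision. Members and lists were chosen with earlier results of these data known. The genes named were the members and all measured genes of cholesterol synthesis, uptake and regulation. Of other lists, the called genes or the 2 with the largest means in size were named. Added to these were Apoa1, so that all measured hepatocyte markers are given, and Actb and Hprt1. Alternatives were centring, single orientations, each array left out, a 1.5-fold limit, gene means, natural logarithms, a shift by the features of low dye contrast and, added after seeing the data, a count over features with 1 symbol alone. Computation used Python 3.11.15 with numpy 2.4.6 and pandas 2.3.3, and figures used matplotlib 3.10.9.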

Additional observations from a re-analysis of the deposited data

Results flagged for a closer look

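Of 67 features examined, the 7 of Cyp51, Dhcr7 and Acat2 included, 1 had an array far from the other three. Ttr, the plasma carrier transthyretin, had a log2 ratio of -0.54 on array 3, against -0.03 to 0.04 on the other arrays. The gap was 0.878 of the whole range, above Dixon's critical value for 4 values, which chance passes in about 1 of 20 such sets. That rate does not hold for features like Acat2, whose arrays fall into distant pairs by dye, so that no single array stands apart.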

How the results depend on the processing

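All 40 alternative values of the Cyp51 features stayed above 0 (0.25 to 0.59), and all 20 of the Dhcr7 features stayed below 0 (-0.87 to -0.41). Every array value of these features already had that sign. Only the centring and the shift by low dye contrast could therefore have turned it, and the other alternatives are no check on sign. For Acat2, 9 of 10 stayed below 0, the exception being 0.65 with ANIT in Cy3 alone. With an array left out, its mean still averaged both dye orientations. With arrays centred, the Cyp51 features 194, 419, 1389 and 1471 stood at 0.57, 0.57, 0.49 and 0.49, and the Dhcr7 features 921 and 1751 at -0.44 and -0.41. Read as natural logarithms, the same features came to 0.58, 0.59, 0.48 and 0.47, and to -0.87 and -0.82 on the log2 scale, the difference of Cyp51 and Dhcr7 to 1.37, and the medians of fatty acid and bile acid synthesis to -2.75 and -1.89, with 33 features higher and 113 lower. For Cyp51 feature 1471, the gene mean was 0.37 and the shift by features of low dye contrast gave 0.36. With ANIT in Cy5 alone 1 member feature was called, Acat2, which was also the 1 lower gene of cholesterol synthesis, and 667 features were lower. With ANIT in Cy3 alone the median of cholesterol synthesis was 0.28 and that of fatty acid synthesis -1.54, and 1 gene of bile acid synthesis was lower. At 1.5-fold 1 member feature was called, a Dhcr7 feature (by gene mean, 1 lower gene of cholesterol synthesis), with 48 features higher and 134 lower. By gene means 6 genes were higher and 34 lower, and over features with 1 symbol alone, a choice made after seeing the data, 9 were higher and 52 lower. With each array left out, the Cyp51 features lay between 0.31 and 0.44, the Dhcr7 features between -0.63 and -0.53, Acat2 between -0.37 and -0.29 and the difference of Cyp51 and Dhcr7 between 0.93 and 0.98, with no member called. No paired analysis was possible because there is 1 pool per condition.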

Other observations

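The electron donor genes differed among their own features, which were chosen for mention after their values were seen. Cyb5r3 feature 1360 was called lower, at -1.62 ± 0.13, while feature 1881 stood at -0.33 ± 1.19, from values of -1.35 and -1.37 (arrays 1 and 3) and of 0.60 and 0.81 (arrays 2 and 4), close to the Acat2 values. Por ran from -0.35 ± 0.46 (feature 1397) to 0.93 ± 0.12 (feature 1136). Of the 6 features of Cyb5a, which encodes cytochrome b5, feature 1342 stood at 0.59 ± 0.18 and the rest between -0.41 and -0.26. The highest of the rest, feature 140 at -0.26 ± 0.88, split by dye, at -0.92, 0.36, -1.10 and 0.62 on arrays 1 to 4. The cause of these differences was not tested.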
